A study of Mus musculus with 12 samples.

Results

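Wnt pathway components and regulators were followed in PUER cells. This mouse line of myeloid progenitors carries a PU.1 that 4-hydroxytamoxifen (4-OHT) switches on, PU.1 being a transcription factor of the macrophage lineage. The set was taken by name from the deposited normalized table: genes starting with Wnt, Fzd, Dkk, Sfrp, Dvl, Axin, Gsk3, Csnk1, Ctnn, Tcf7, Tle or Nkd, together with Lef1, Lrp5, Lrp6, Apc, Porcn, Rnf43, Znrf3, Lgr5, Wif1 and Notum (listed as 5730593N15Rik). This gave 79 of 27676 gene names, of which 68 were bright enough to be tested. Cells of all 4 groups carried the inducible PU.1 and were infected with a retrovirus. Control cells received the empty MIGR1 vector, which expresses GFP, and β-catenin cells received β-catenin-S33Y, a form with a serine of the amino end replaced by tyrosine. Cells with GFP were collected by flow sorting on day 5 from infection and then given 10 nM 4-OHT. RNA was taken at 0 h and at 24 h of 4-OHT from each kind of cell, with 3 arrays per group named A, B and C. The labels do not say that these came from separate cultures, so p-values measure the spread between arrays, which may be technical. No group was kept for 24 h without 4-OHT.

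Wnt proteins are secreted, lipid-modified ligands that bind Frizzled receptors and the co-receptors Lrp5 and Lrp6. Without them, a destruction complex of Axin, Apc, glycogen synthase kinase and casein kinase marks β-catenin for degradation through phosphorylation near its amino end, at residues that include the serine changed in β-catenin-S33Y. Stabilised β-catenin enters the nucleus, binds TCF/LEF factors in place of Tle co-repressors, and switches on target genes that include several inhibitors of the pathway itself. In blood cells the pathway is best known for its part in stem cell maintenance, T cell development and leukaemia.

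Each array gave a normalized log2 intensity per gene from 1 probe, and levels are not compared between genes. Values near the bulk of unexpressed probes carry no level, so a background bound was set on each array, and it lay between 7.38 and 7.62. A gene was taken as above background in a group when all 3 arrays exceeded their bounds. Where an array of the lower group was under its bound, its value was set to the bound and the fold is given as "at least". Differences below are log2 differences ± the standard error of the limma fit to all 12 arrays, with p-values adjusted over 22461 genes and a call at 0.05. Of the macrophage markers Emr1, Csf1r, Cd14, Cd68, Mpeg1 and Fcgr1, 3 of 6 were above background in control cells at 0 h and 6 at 24 h. Their summed linear intensity was 17620 to 23450 at 0 h and 91330 to 106400 at 24 h in control cells, and 11170 to 14140 and 57110 to 64440 in β-catenin cells. Myeloid line markers were above background for 5 of 6 genes at 0 h in both kinds of cell. Ptprc, which encodes the pan-leukocyte protein CD45, was below background at 0 h in both.

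In all, 41 of the 79 genes were above background in at least 1 group and 31 on all 12 arrays. Another 36 were above it on no array, and Lgr5 and Tcf7 exceeded it on some arrays only. The number above background was 34 in control cells at 0 h, 35 in control cells at 24 h, 39 in β-catenin cells at 0 h and 35 in β-catenin cells at 24 h. The intracellular machinery and the Tle family were mostly above background. This held for 10 of 11 Axin, Apc, Gsk3 and Csnk1 genes and 6 of 9 catenins and their binders. It also held for 3 of 5 transducers and 5 of 5 co-repressors. Ligands and secreted inhibitors mostly were not. Above it were 4 of 19 Wnt genes and 2 of 10 genes grouped by name as secreted inhibitors, Wif1 and Dkkl1. A bound at 2 standard deviations would have placed 43 genes above background, and one at 4 standard deviations 37. Of all genes in the table, 46.6% to 49.6% were above the bound used, counted array by array and not over the 3 arrays of a group.

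Over 24 h of 4-OHT in control cells, 9 genes of the set were higher and 10 lower among the 68 tested (13.2% and 14.7%), where 11.9% and 10.8% of all genes were called higher and lower. In β-catenin cells 5 were higher and 6 lower (7.35% and 8.82%), against 8.02% and 6.32% of all genes. β-catenin cells at 0 h had 5 genes higher and 4 lower than control cells (7.35% and 5.88%), against 4.38% and 6.62% of all genes. At 24 h, 10 were higher and 5 lower (14.7% and 7.35%), against 8.68% and 9.88%. The difference between both 4-OHT responses was called for 5 genes. The log2 change in β-catenin cells less that in control cells was positive for 4 and negative for 1 (5.88% and 1.47%). Of all genes, 3.74% and 3.43% were called. Porcn, at the bound in both β-catenin groups, is among these 5. Some calls in these counts were of genes above background in no whole group: 1 in each 4-OHT response, 1 at 0 h and 2 at 24 h. Wif1, called higher at 24 h, was also below the bound on all arrays compared there. Median differences of the set stayed between -0.04 and 0.09 over these 5 contrasts, and those of all genes between -0.01 and 0.03. A gene in at least 1 of these counts is one of 26, and 53 genes were called in none. The contrasts share arrays with each other, so their values stand side by side below and are not correlated. In bulk RNA, fewer cells of a type and less RNA per cell cannot be told apart.

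**Figure D1:**
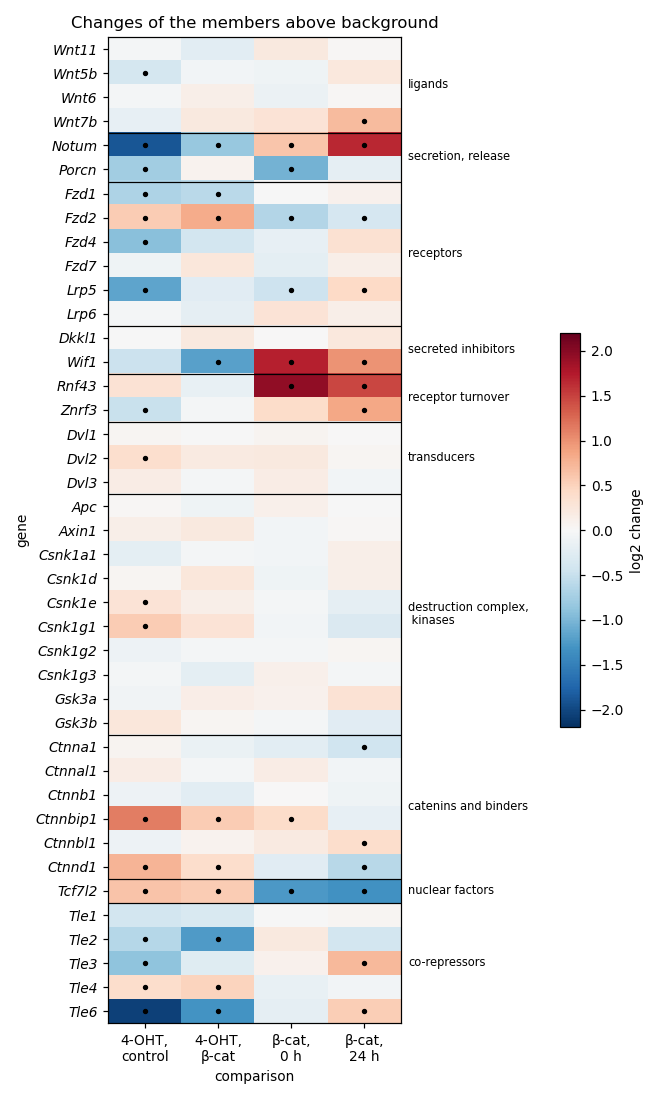
Log2 difference (colour) of the 41 genes above background in at least 1 group, ordered by role in the pathway, in 4 contrasts between groups of 3 arrays; black dots mark limma calls at an adjusted p below 0.05. Rows of the Axin, Apc, Gsk3 and Csnk1 genes are nearly blank, while Tle6, Notum and Tcf7l2 carry deep colours. So do Rnf43 and Wif1, whose control arrays were below background.

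Among the ligands, Wnt5b, Wnt6 and Wnt7b were above background on all 12 arrays, and Wnt11 was above it on 8. The 15 other Wnt genes, including Wnt1, Wnt3a and Wnt5a, lay between 5.53 and 7.46 on the log2 scale and exceeded the bound on no array. Wnt7b, which in other tissues acts through β-catenin, stood at 8.32, 8.21 and 8.20 in control cells and 8.58, 8.45 and 8.64 in β-catenin cells at 0 h. At 24 h it stood at 7.87, 8.14 and 8.21 against 8.59, 9.10 and 8.63. The groups overlapped at neither time. Limma called the difference at 24 h (0.70 ± 0.14, adjusted p = 0.00457, a 1.63-fold higher level). It did not call that at 0 h (0.31 ± 0.14, limma adjusted p = 0.203), nor the change between both differences. Wnt5b, a ligand known mainly from β-catenin-independent signalling, went from 8.02, 7.88 and 8.03 to 7.55, 7.57 and 7.63 over 24 h of 4-OHT in control cells. That fall was called by limma (-0.39 ± 0.09, adjusted p = 0.00859). Wnt6 lay between 7.81 and 8.29 on all arrays and was called in no contrast.

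Porcn and Notum act at opposite ends of a ligand's life. Porcn encodes the acyltransferase that attaches the lipid a Wnt needs for secretion, and Notum an enzyme that removes it outside the cell. Notum stood at 9.07, 9.31 and 9.25 in control cells at 0 h and at 7.27, 7.39 and 7.32 after 24 h of 4-OHT. In β-catenin cells it stood at 9.68, 9.82 and 9.98 at 0 h and at 9.18, 8.84 and 8.94 at 24 h. No 2 of the 4 groups overlapped except control cells at 0 h with β-catenin cells at 24 h. With β-catenin it was 1.53-fold higher at 0 h (0.62 ± 0.12, limma adjusted p = 0.00466) and at least 2.95-fold higher at 24 h (1.66 ± 0.12, limma adjusted p = 1.88e-06). Its fall over 24 h was at least 3.45-fold in control cells (-1.88 ± 0.12, limma adjusted p = 1.9e-07) and 1.79-fold in β-catenin cells (-0.84 ± 0.12, limma adjusted p = 0.000403).

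Porcn stood at 8.48, 8.25 and 8.32 in control cells at 0 h and at 7.73, 7.53 and 7.51 at 24 h, a fall of 1.69-fold (-0.76 ± 0.11, limma adjusted p = 0.000355). In β-catenin cells it was already below background at 0 h, with 7.36, 7.17 and 7.38, and stood at 7.32, 7.58 and 7.26 at 24 h. At 0 h it was at least 1.85-fold lower in β-catenin cells than in control cells (-1.05 ± 0.11, limma adjusted p = 9.11e-05). The difference at 24 h did not pass the test (-0.20 ± 0.11, limma adjusted p = 0.259). Since the β-catenin groups lay at the bound, a further fall there could not have been measured.

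Of 13 receptor genes, 6 were above background in at least 1 group: Fzd1, Fzd2, Fzd4, Fzd7, Lrp5 and Lrp6. The co-receptor gene Lrp5 stood at 11.31, 11.32 and 11.23 in control cells at 0 h and at 10.12, 10.23 and 10.05 at 24 h, and at 10.93, 10.80 and 10.76 and then 10.67, 10.53 and 10.54 in β-catenin cells. The 4 groups were fully separated, in the order control 0 h, β-catenin 0 h, β-catenin 24 h and control 24 h from high to low. Lrp5 fell 2.22-fold with 4-OHT in control cells (-1.15 ± 0.09, limma adjusted p = 1.31e-06), while in β-catenin cells the difference was -0.25 ± 0.09 (limma adjusted p = 0.0845). β-catenin cells were lower than control cells at 0 h (-0.46 ± 0.09, limma adjusted p = 0.00554) and higher at 24 h (0.44 ± 0.09, limma adjusted p = 0.00443). Its paralogue Lrp6 was above background on all 3 arrays of each β-catenin group and on some arrays of each control group, from 7.39 to 7.90, and was called in no contrast.

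Fzd4 encodes a Frizzled that also binds Norrin, a ligand unrelated to Wnts. It stood at 10.16, 10.42 and 10.72 in control cells at 0 h and at 9.63, 9.30 and 9.64 at 24 h, and β-catenin cells held 10.10, 10.33 and 10.35 and then 9.99, 9.72 and 9.86. Neither pair of times overlapped. The fall was called in control cells (-0.91 ± 0.15, limma adjusted p = 0.000754) and not in β-catenin cells (-0.40 ± 0.15, limma adjusted p = 0.103), and the difference between these falls did not pass its own test (0.51 ± 0.21, limma adjusted p = 0.2). Fzd1 went from 7.80, 8.12 and 8.13 to 7.32, 7.52 and 7.17 in control cells and from 7.99, 8.06 and 7.996 to 7.31, 7.52 and 7.44 in β-catenin cells. It thus fell at least 1.46-fold (limma adjusted p = 0.00112) and at least 1.43-fold (limma adjusted p = 0.00544), with the 24 h arrays near or below the bound in both.

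Fzd2 went the opposite way. It stood at 7.63, 7.76 and 7.48 in control cells at 0 h and at 8.10, 8.25 and 8.19 at 24 h. In β-catenin cells it was below background at 0 h, with 6.95, 6.90 and 7.11, and stood at 7.75, 7.76 and 7.90 at 24 h. The rise was at least 1.46-fold in control cells (0.56 ± 0.10, limma adjusted p = 0.00142) and at least 1.27-fold in β-catenin cells (0.82 ± 0.10, limma adjusted p = 0.000168). β-catenin cells were lower at 0 h (-0.64 ± 0.10, limma adjusted p = 0.00134) and at 24 h (-0.38 ± 0.10, limma adjusted p = 0.0215). After normexp and quantile normalization neither passed (-0.44, adjusted p = 0.0519, and -0.24, adjusted p = 0.238), and after 75th percentile scaling that at 24 h did not (-0.28, adjusted p = 0.154). The call at 24 h was also lost when only those groups were fitted with the replicate letter as a block (adjusted p = 0.05965) and without some single arrays (adjusted p from 0.0614 to 0.0783). Fzd7 lay between 10.02 and 10.63 on all 12 arrays and was called in no contrast.

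**Figure D2:**
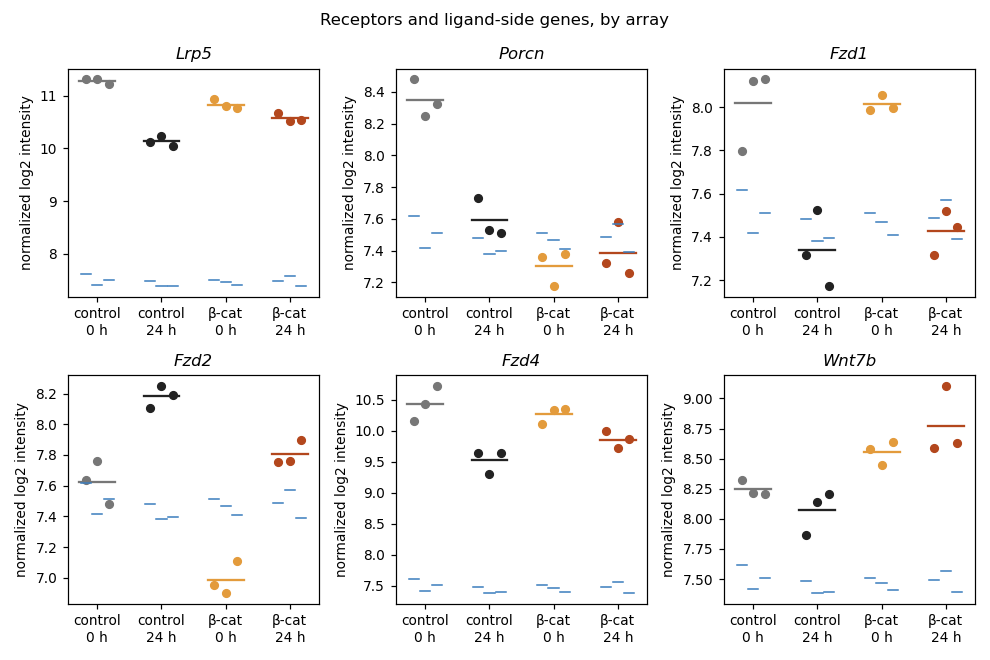
Normalized log2 intensity of Lrp5, Porcn, Fzd1, Fzd2, Fzd4 and Wnt7b on each of 12 arrays (dots) with group means (bars) and the background bound of each array (short blue lines); each panel has its own axis. Lrp5 separates all 4 groups, with control cells at 24 h lowest, and Porcn is at the bound in both β-catenin groups.

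Rnf43 and Wif1 were below background in control cells and above it in β-catenin cells at 0 h. Rnf43 encodes a ubiquitin ligase that removes Frizzled from the cell surface and is itself a β-catenin target in intestine. It was below background on all 6 control arrays, with values from 5.37 to 6.32, and stood at 7.59, 7.77 and 7.90 in β-catenin cells at 0 h and at 7.47, 7.57 and 7.70 at 24 h. All β-catenin arrays were above all control arrays. The level was at least 1.18-fold higher at 0 h (measured difference 1.96 ± 0.18, limma adjusted p = 2.02e-05). At 24 h the measured difference was 1.48 ± 0.18 (limma adjusted p = 0.000122). The fold at 0 h is small because the β-catenin arrays themselves lay near the bound. No fold is given at 24 h, since only 1 of 3 β-catenin arrays exceeded its bound and the others would be raised to it.

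Znrf3, the paralogue of Rnf43 with the same activity, was above background on every array. It stood at 9.02, 8.53 and 9.05 in control cells and 9.22, 9.36 and 9.22 in β-catenin cells at 0 h, and at 8.38, 8.37 and 8.37 against 9.29, 9.20 and 9.17 at 24 h. The difference was called at 24 h, where β-catenin cells were 1.80-fold higher (0.85 ± 0.13, limma adjusted p = 0.000667), and not at 0 h (0.40 ± 0.13, limma adjusted p = 0.0693). In control cells Znrf3 fell over 24 h (-0.50 ± 0.13, limma adjusted p = 0.0132). That call was lost without array A or C of control cells at 0 h (adjusted p from 0.0562 to 0.0607). It was also lost when only those groups were fitted (adjusted p = 0.0598). In β-catenin cells the difference over time was -0.05 ± 0.13 (limma adjusted p = 0.864).

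Wif1, a secreted protein that binds Wnt ligands and keeps them from their receptors, was below background on all 6 control arrays, from 5.39 to 6.42. In β-catenin cells it stood at 7.90, 8.03 and 7.93 at 0 h and at 6.80, 7.01 and 6.46 at 24 h, so only the 0 h group was above background. It was at least 1.36-fold higher than in control cells at 0 h (1.71 ± 0.18, limma adjusted p = 8.17e-05) and fell at least 1.39-fold over 24 h of 4-OHT (-1.20 ± 0.18, limma adjusted p = 0.000901). Lgr5, a receptor for R-spondins and a β-catenin target in intestinal stem cells, exceeded the bound on 2 of 3 arrays of β-catenin cells at 0 h, from 7.30 to 7.90, and lay between 6.26 and 6.99 on the other 9 arrays. It was called higher with β-catenin at 0 h (limma adjusted p = 0.00151) and is named although it failed the background rule. Its fold is not given, since the value computed also raised 1 array of the higher group to the bound. Axin2, the target most used as a readout of the pathway in other tissues, lay between 5.74 and 6.73, below the bound on every array, and gave no adjusted p below 0.656 in any contrast. Of the other genes grouped by name as secreted inhibitors, Dkkl1 was above background in at least 1 group and uncalled. The remaining 8 (Dkk1 to Dkk4 and 4 Sfrp genes) lay between 5.55 and 7.30, on no array above the bound.

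**Figure D3:**
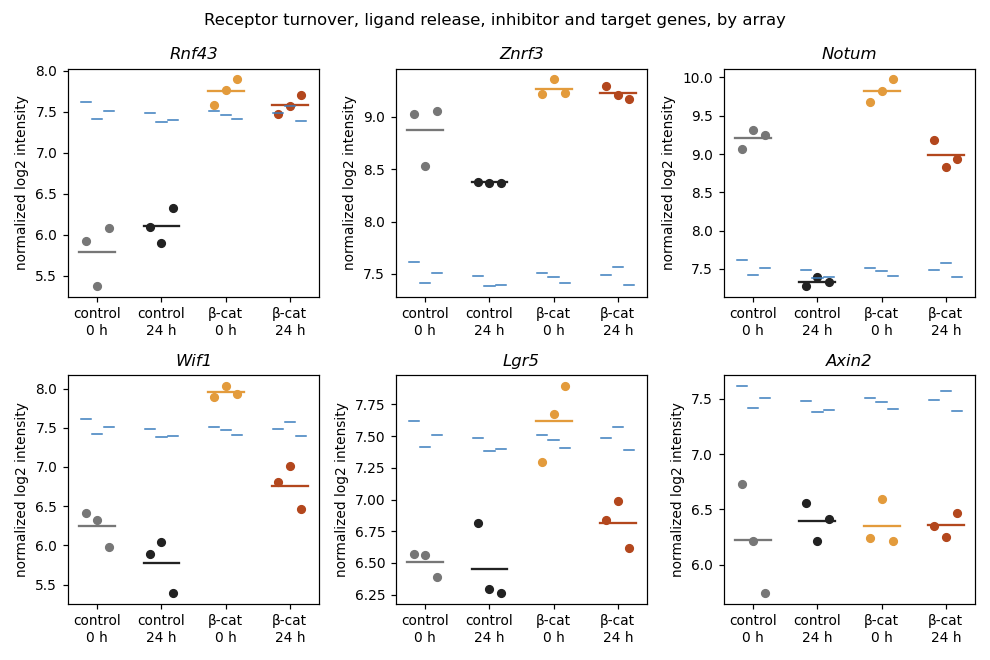
Normalized log2 intensity of Rnf43, Znrf3, Notum, Wif1, Lgr5 and Axin2 on each of 12 arrays (dots) with group means (bars) and the background bound of each array (short blue lines); each panel has its own axis. Rnf43 is above the control arrays in both β-catenin groups, Wif1 crosses the bound only in β-catenin cells at 0 h, and Axin2 stays below the bound.

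Markers of another cell type moved with β-catenin beside these genes. Of 6 eosinophil markers, 4 were above background in β-catenin cells at both times, against 0 in control cells at 0 h and 1 at 24 h. Their summed linear intensity was 561 to 1105 and 1172 to 3332 in control cells at 0 h and 24 h, and 73710 to 97970 and 73110 to 93670 in β-catenin cells. The eosinophil receptor genes Il5ra and Ccr3 were below background in every group. Of 7 mast cell and basophil markers, 3 were above background in each control group and 5 in each β-catenin group, with sums of 2729 to 2819 and 2112 to 2289 in control cells and 7595 to 8291 and 4379 to 5134 in β-catenin cells. Means of Cpa3, Hdc and Gata2 were higher with β-catenin at both times. That of Il1rl1 was 9.22 against 6.56 in control cells at 0 h but 8.32 against 9.41 at 24 h. Mcpt8 stood at 10.29 against 10.47 and 9.64 against 9.51, and Ms4a2 and Fcer1a were above background in no whole group. The part of these cell types in the differences between β-catenin and control cells was not tested.

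Promoter sequences were read for the genes of the set with a promoter in the RefSeq collection used (GRCm38.p6). Each ran from 250 bases before to 50 after a listed start. The first search was for forms of the sequence that TCF/LEF factors recognise. A gene was counted when any of its starts held a motif. The letters searched on both strands were CTTTGAT and CTTTGAA. Other variants of the recognised sequence were not searched, so genes that hold only those were not counted. Of the set, 55 genes had a promoter, and 4 of them held either (Dkk1, Gsk3a, Wnt11 and Wnt5b), 7.27% against 9.88% of 27025 genes. None of the 7 genes called higher with β-catenin at either time that had a promoter held either. Notum, Znrf3, Lgr5, Lrp5 and Wnt7b were also called higher but had no promoter in the collection, so they were not searched. The second motif searched was the purine-rich PU box GAGGAA, which PU.1 binds, or TTCCTC on the opposite strand. It was found in 16 of 55 genes (29.1%), against 31.3% of all genes, and in 4 of the 14 with a promoter that were called over 24 h of 4-OHT in control cells (28.6%). The 4 promoters below, each at its gene's most upstream start, were chosen after values were seen, Rnf43, Wif1 and Tcf7l2 for their difference with β-catenin and Tle6 for its fall over 24 h of 4-OHT. They are Rnf43 (chr11:87662837-87663136, plus strand), Wif1 (chr10:121033754-121034053, plus strand), Tcf7l2 (chr19:55741560-55741859, plus strand) and Tle6 (chr10:81600851-81601150, minus strand). Capitals mark the PU box letters.
Rnf43: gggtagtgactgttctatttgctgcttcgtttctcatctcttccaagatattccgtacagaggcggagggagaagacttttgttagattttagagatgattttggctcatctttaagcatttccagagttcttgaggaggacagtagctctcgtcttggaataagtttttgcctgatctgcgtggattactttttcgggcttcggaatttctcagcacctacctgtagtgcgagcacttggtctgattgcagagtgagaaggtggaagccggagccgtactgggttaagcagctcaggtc
Wif1: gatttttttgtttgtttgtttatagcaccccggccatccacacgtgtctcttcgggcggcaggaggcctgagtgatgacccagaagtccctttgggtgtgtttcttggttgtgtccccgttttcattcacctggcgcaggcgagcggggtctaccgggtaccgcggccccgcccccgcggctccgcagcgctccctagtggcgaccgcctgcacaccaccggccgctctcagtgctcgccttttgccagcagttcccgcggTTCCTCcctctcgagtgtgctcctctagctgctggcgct
Tcf7l2: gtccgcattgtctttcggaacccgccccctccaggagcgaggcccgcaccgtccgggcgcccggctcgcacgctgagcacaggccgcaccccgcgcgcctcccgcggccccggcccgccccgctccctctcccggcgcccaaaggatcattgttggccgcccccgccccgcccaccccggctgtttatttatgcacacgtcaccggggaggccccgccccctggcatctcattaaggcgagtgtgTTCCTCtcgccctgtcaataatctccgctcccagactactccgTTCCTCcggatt
Tle6: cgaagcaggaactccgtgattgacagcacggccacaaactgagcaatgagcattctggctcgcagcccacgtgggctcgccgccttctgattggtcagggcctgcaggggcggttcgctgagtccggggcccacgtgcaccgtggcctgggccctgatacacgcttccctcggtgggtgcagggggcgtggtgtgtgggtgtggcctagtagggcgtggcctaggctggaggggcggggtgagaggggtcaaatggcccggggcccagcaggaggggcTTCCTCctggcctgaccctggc
The Rnf43 stretch held neither motif, Wif1 and Tle6 held 1 PU box each, and Tcf7l2 held 2, on either side of its start. A match describes letters in this window and is not a measured binding site.

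The cytoplasmic core of the pathway was above background and mostly uncalled. Apc, the scaffold of the destruction complex, lay between 10.28 and 10.68, and its differences ranged from -0.11 to 0.11 over the 5 contrasts, each with a limma adjusted p of at least 0.647. Axin1 lay between 10.83 and 11.26 and was called in no contrast, its largest difference being 0.21 ± 0.12 over 24 h in β-catenin cells (limma adjusted p = 0.277). Gsk3b, one of the kinases that mark β-catenin, came nearer to a call. It stood at 9.51, 9.68 and 9.60 and then 9.83, 9.74 and 9.97 in control cells, and at 9.55, 9.59 and 9.50 and then 9.64, 9.47 and 9.68 in β-catenin cells. Its difference over time in control cells was 0.25 ± 0.09 (limma adjusted p = 0.0795) and that between cells at 24 h -0.25 ± 0.09 (limma adjusted p = 0.0909).

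Only the control response gave calls among these genes. The casein kinase gene Csnk1g1 went from 11.49, 11.45 and 11.53 to 11.80, 12.18 and 12.18 (0.56 ± 0.12, limma adjusted p = 0.00433). Csnk1e rose by less, from 13.44, 13.71 and 13.52 to 13.80, 13.85 and 13.91 (0.30 ± 0.09, limma adjusted p = 0.0396). Dvl2, whose protein relays the signal from Frizzled to the destruction complex, went from 9.56, 9.57 and 9.60 to 9.95, 9.89 and 9.98 (0.36 ± 0.10, limma adjusted p = 0.0181). Groups did not overlap for these genes, yet the calls of Csnk1e and Dvl2 were each lost without some single arrays, with adjusted p up to 0.144 and 0.0601. Both were also lost after 75th percentile scaling (adjusted p = 0.0691 and 0.0727). That of Csnk1e was lost with no filter (adjusted p = 0.0598) and when only those groups were fitted (adjusted p = 0.113).

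Ctnnb1, which encodes β-catenin and was the gene delivered by the vector, stood at 13.87, 13.90 and 13.82 in control cells and 13.85, 13.78 and 13.99 in β-catenin cells at 0 h. At 24 h the values were 13.67, 13.81 and 13.77 against 13.56, 13.64 and 13.76. The groups overlapped at both times, and the differences were 0.01 ± 0.09 (limma adjusted p = 0.949) and -0.10 ± 0.09 (limma adjusted p = 0.515). The position of the probe on the transcript was not analysed here, so it is unknown whether it reads the RNA of the vector, and it does not check the labels.

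Ctnnbip1 encodes ICAT, an inhibitor that keeps β-catenin from TCF factors. It stood at 8.38, 8.40 and 8.41 in control cells at 0 h and at 9.60, 9.51 and 9.48 at 24 h, a 2.19-fold rise (1.13 ± 0.09, limma adjusted p = 1.32e-06). Cells with β-catenin started higher, at 8.69, 8.90 and 8.82, and reached 9.26, 9.41 and 9.40, a 1.47-fold rise (0.55 ± 0.09, limma adjusted p = 0.00107). Groups at 0 h did not overlap (0.41 ± 0.09, limma adjusted p = 0.0103), a call that was lost without array B of β-catenin cells at 0 h (adjusted p = 0.0594). At 24 h the difference was -0.17 ± 0.09 (limma adjusted p = 0.205).

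Of the junctional catenins, Ctnnd1, which encodes p120-catenin, stood at 9.07, 8.95 and 9.01 and then 9.57, 9.76 and 9.92 in control cells, and at 8.75, 8.81 and 8.72 and then 9.06, 9.21 and 9.17 in β-catenin cells. It rose over 24 h in control cells (0.74 ± 0.10, limma adjusted p = 0.000142) and in β-catenin cells (0.39 ± 0.10, limma adjusted p = 0.0218), and at 24 h was 1.52-fold lower in β-catenin cells (-0.61 ± 0.10, limma adjusted p = 0.00124). The call in β-catenin cells was lost without 5 of the 6 β-catenin arrays, each left out alone (adjusted p from 0.0519 to 0.0775). It was also lost after 75th percentile scaling (adjusted p = 0.0607). Ctnna1, which encodes α-catenin, stood at 16.001, 15.82 and 15.76 against 15.48, 15.40 and 15.40 at 24 h, 1.35-fold lower in β-catenin cells (-0.43 ± 0.09, limma adjusted p = 0.00524). It reached the scan ceiling on 2 arrays, so its differences may be understated. Ctnnbl1, a spliceosome-associated protein that shares only an armadillo-like fold with β-catenin, stood at 13.24, 13.12 and 13.17 against 13.56, 13.52 and 13.62 at 24 h (0.39 ± 0.08, limma adjusted p = 0.00511). With only these groups fitted and the replicate letter as a block, the adjusted p was 0.0502.

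Of the 3 TCF/LEF genes in the set, Tcf7l2 was the only one above background in a whole group. It stood at 12.52, 12.86 and 12.72 in control cells and 11.45, 11.44 and 11.44 in β-catenin cells at 0 h. At 24 h the values were 13.16, 13.43 and 13.40 against 11.84, 12.05 and 12.11. The 4 groups were fully separated, with both β-catenin groups below both control groups. β-catenin cells were 2.39-fold lower at 0 h (-1.26 ± 0.11, limma adjusted p = 2.21e-05) and 2.52-fold lower at 24 h (-1.33 ± 0.11, limma adjusted p = 9.83e-06). Over 24 h of 4-OHT it rose in control cells (0.63 ± 0.11, limma adjusted p = 0.00148) and in β-catenin cells (0.56 ± 0.11, limma adjusted p = 0.00584), and these rises differed by -0.07 ± 0.16 (limma adjusted p = 0.845). Lef1, the factor with the closest ties to lymphoid cells, lay between 6.31 and 6.85, on no array above the bound. Tcf7 lay between 6.23 and 7.54 and exceeded the bound on array A of control cells at 24 h alone. Neither was called in any contrast, with limma adjusted p of at least 0.217 for Lef1 and 0.697 for Tcf7.

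The Tle genes encode co-repressors of the Groucho family, which sit on TCF/LEF factors in the absence of β-catenin. All 5 were above background on every array. Tle6 encodes a divergent member of the family. It stood at 12.09, 12.29 and 12.33 in control cells at 0 h and at 10.33, 10.17 and 10.07 at 24 h. With β-catenin it went from 11.94, 12.02 and 12.18 to 10.96, 10.64 and 10.59. The fall was 4.14-fold in control cells (-2.05 ± 0.12, limma adjusted p = 1.61e-07) and 2.48-fold in β-catenin cells (-1.31 ± 0.12, limma adjusted p = 2.1e-05). β-catenin cells overlapped with control cells at 0 h (-0.19 ± 0.12, limma adjusted p = 0.38) and were 1.46-fold higher at 24 h (0.54 ± 0.12, limma adjusted p = 0.0095).

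Tle3 also fell in control cells, from 12.99, 12.91 and 12.77 to 11.71, 12.19 and 12.10 (-0.89 ± 0.14, limma adjusted p = 0.000471). In β-catenin cells it stood at 13.11, 12.89 and 12.94 and then 12.55, 12.92 and 12.68, groups that overlapped (-0.27 ± 0.14, limma adjusted p = 0.249). It was 1.64-fold higher in β-catenin cells at 24 h (0.71 ± 0.14, limma adjusted p = 0.00389), although the difference between both responses did not pass its own test (0.62 ± 0.20, limma adjusted p = 0.0825). Tle2 fell in both kinds of cell. It went from 9.22, 9.68 and 9.54 to 8.50, 9.03 and 9.05 in control cells (-0.62 ± 0.15, limma adjusted p = 0.0103) and from 9.65, 9.74 and 9.72 to 8.42, 8.46 and 8.51 in β-catenin cells (-1.24 ± 0.15, limma adjusted p = 0.000163). The call in control cells was lost when only those groups were fitted (adjusted p = 0.0556). Its responses differed by -0.62 ± 0.21 (limma adjusted p = 0.114).

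Tle4 went up while these went down. It stood at 13.50, 13.48 and 13.46 and then 14.01, 13.86 and 13.76 in control cells, and at 13.34, 13.36 and 13.27 and then 13.89, 13.79 and 13.78 in β-catenin cells. The rises were 0.40 ± 0.09 (limma adjusted p = 0.0055) and 0.50 ± 0.09 (limma adjusted p = 0.00216), and β-catenin made no called difference at either time. Tle1 lay between 11.77 and 12.54 and was called in no contrast, with a difference of -0.40 ± 0.14 over 24 h in control cells (limma adjusted p = 0.0568).

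**Figure D4:**
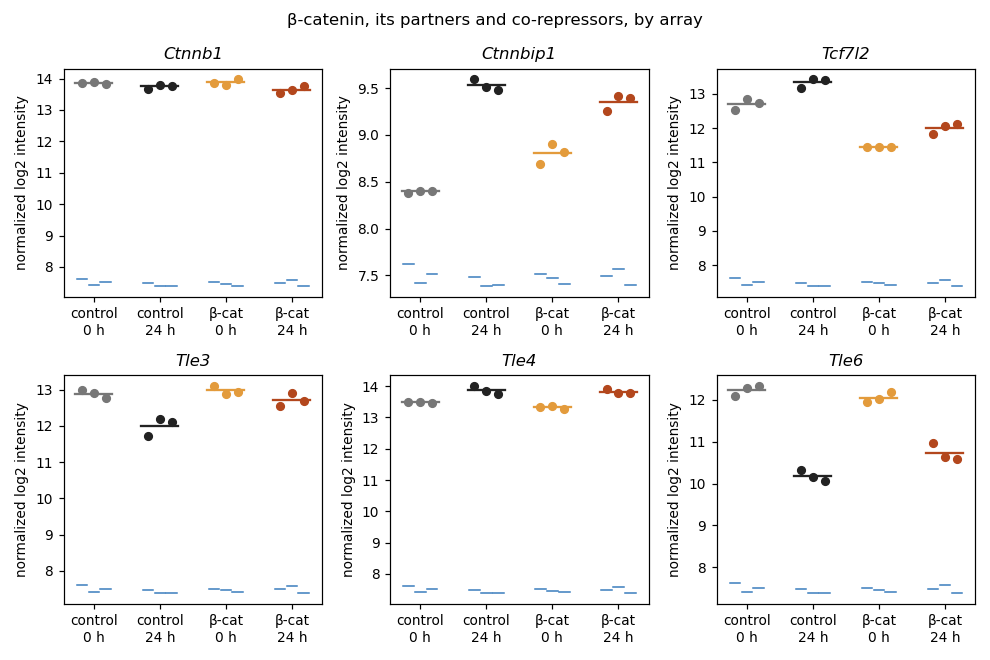
Normalized log2 intensity of Ctnnb1, Ctnnbip1, Tcf7l2, Tle3, Tle4 and Tle6 on each of 12 arrays (dots) with group means (bars) and the background bound of each array (short blue lines); each panel has its own axis. Tcf7l2 is lower in both β-catenin groups than in both control groups, Ctnnb1 overlaps at both times, and Tle4 rises while Tle6 falls.

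The difference between both 4-OHT responses, tested as an interaction, passed for Notum, Lrp5, Porcn, Tle6 and Ctnnbip1. The response in β-catenin cells less that in control cells was 1.04 ± 0.16 for Notum (limma adjusted p = 0.00248), 0.90 ± 0.12 for Lrp5 (limma adjusted p = 0.00118) and 0.84 ± 0.16 for Porcn (limma adjusted p = 0.00811). It was 0.74 ± 0.17 for Tle6 (limma adjusted p = 0.0253) and -0.58 ± 0.12 for Ctnnbip1 (limma adjusted p = 0.0142). For Notum, Lrp5, Tle6 and Ctnnbip1 the change in β-catenin cells had the direction of that in control cells and a smaller size. For Porcn the β-catenin groups lay at the bound, where a fall could not have been measured, so its call cannot show that the responses differed. The call for Tle6 was lost without any of 6 single arrays (adjusted p from 0.0591 to 0.0661), and that for Ctnnbip1 when the arrays were scaled to their 75th percentile (-0.44, adjusted p = 0.0631). Macrophage markers, given above, rose over the same 24 h in both kinds of cell, and their part in these responses was not tested.

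**Figure D5:**
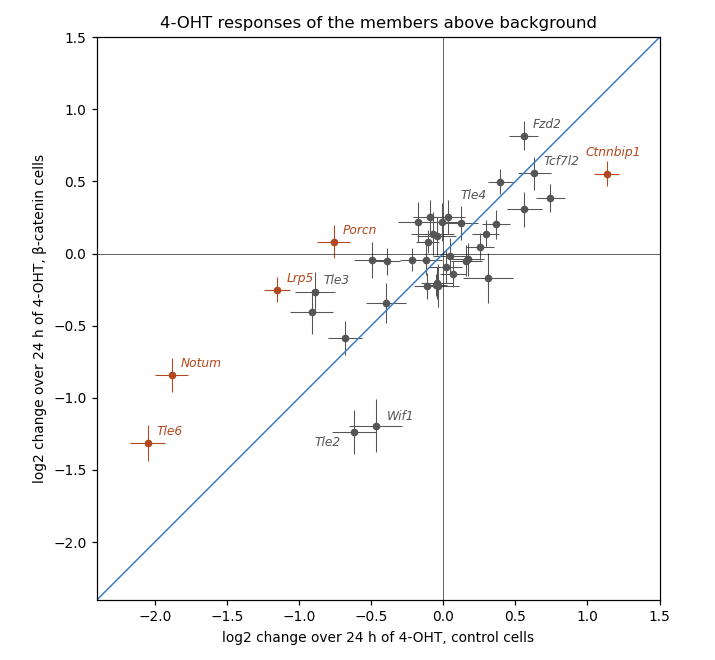
Log2 change over 24 h of 4-OHT in control cells (horizontal) and in β-catenin cells (vertical) of the 41 genes above background in at least 1 group, with standard errors of the limma fit as bars; each change compares 3 arrays with 3. The line marks equal responses, and the 5 genes called by the interaction test are in red. Notum, Lrp5, Porcn and Tle6 lie above the line and Ctnnbip1 below it. Porcn was at the bound in both β-catenin groups.

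Beyond the set, 159 other genes tied to the pathway were listed, 147 of them in the table. The counts below stand against 4.38% of all genes called higher and 6.62% lower with β-catenin at 0 h, and 8.68% and 9.88% at 24 h. Of 31 tested target genes known from other tissues, 1 was higher and 6 were lower with β-catenin at 0 h, and 4 were higher and 4 lower at 24 h; their median differences were -0.04 and 0.10, against 0.01 and 0.03 for all genes. Jun and Fosl1, subunits of the AP-1 transcription factor, were lower at 0 h by 7.64-fold (-2.93 ± 0.12, limma adjusted p = 3.84e-08) and 3.81-fold (-1.93 ± 0.13, limma adjusted p = 2.03e-06). At 24 h, Id2, Jun and Plaur were lower by 3.14-fold, 3.01-fold and 1.88-fold (limma adjusted p = 7.43e-05, 4.02e-06 and 4.05e-05). Jag1 and Tiam1 were higher by 1.93-fold and 1.79-fold (limma adjusted p = 0.00207 and 4.94e-05). Myc, a β-catenin target in colon, was 1.46-fold higher at 24 h (0.55 ± 0.11, limma adjusted p = 0.00539). Over 24 h in control cells 2 of the 31 targets were higher and 7 lower, where 11.9% and 10.8% of all genes were called, with Vegfa down 4.39-fold (-2.13 ± 0.11, limma adjusted p = 3.26e-08).

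Among 17 tested genes for ligand handling, co-receptors and extracellular modulators, 2 were higher and 1 lower with β-catenin at 0 h, and the 3 called at 24 h were higher, with median differences of -0.09 and 0.08 over the list. Gpr177, the Wnt carrier also called Wls, was 1.34-fold and 1.36-fold higher (limma adjusted p = 0.0154 and 0.0076), and Lgr4, an R-spondin receptor, 1.45-fold and 1.31-fold higher (limma adjusted p = 0.011 and 0.0347). Of 27 cytoplasmic regulators of β-catenin, 1 was higher and 1 lower at 0 h, and 4 were higher and 1 lower at 24 h, with medians of -0.05 and 0.04. Frat2, whose protein binds glycogen synthase kinase and inhibits its action on β-catenin, was 1.56-fold higher at 0 h and 2.51-fold higher at 24 h (limma adjusted p = 0.000748 and 1.88e-06). Arrb1, which encodes β-arrestin, was 2.26-fold lower at 0 h (limma adjusted p = 3.21e-05). Of 24 nuclear cofactors, 1 was higher and 1 lower at 0 h and 2 were higher and 2 lower at 24 h, with medians of -0.05 and 0.04, shares about those of all genes. Bcl9l, a β-catenin coactivator, was 1.60-fold lower at 0 h (limma adjusted p = 0.00528). Of 36 genes of the planar polarity and calcium branches, the 6 called at 0 h were lower, and at 24 h 1 was higher and 6 were lower, with medians of -0.09 at both times. They included Celsr1, an atypical cadherin of planar polarity, 2.05-fold lower at 0 h (limma adjusted p = 7.31e-05).

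T cells and stroma, usual sources of Tcf7, Lef1 and Wnt ligands, left few of their markers above background. Of 7 T cell markers, 1 or 2 were above it in each group, namely Cd3e and Lck, and Cd3g, Cd3d, Cd8a and Zap70 were below it in every group. Of 6 fibroblast and stromal markers, Col1a2 alone was above it in a whole group. Summed linear intensities lay between 912 and 1305 for the T cell markers and between 614 and 873 for the stromal ones.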

How the data were processed

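Total RNA of 12 PUER cell samples was labelled with Cy3 and measured on Agilent mouse whole genome arrays, 1 per sample. The deposited normalized table holds log2 values of 27676 gene names, which the authors normalized between arrays. The submitters' processing notes name limma, with no version. The normalization method, scanner settings and the choice of 1 probe per gene are not given in the sources used here. Scanned intensity of 43379 spots, up to a ceiling of 65535, comes from the authors' non-normalized table and served for alternatives only. Its median per array was 133.5 to 208.

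All 12 arrays were fitted in limma 3.58.1 (R 4.3.3) with 1 mean per group and no block. A gene was kept if it reached its array's 30th percentile on 3 arrays or more, which left 22461. Moderated two-sided tests gave 5 contrasts, with Benjamini-Hochberg adjustment over all genes and a call below 0.05. The background bound of an array was the mode of its values plus 3 standard deviations of the values below the mode, which placed 46.6% to 49.6% of all genes above it. Precision is limited by the number of arrays. The test was tried on simulated data. Members were matched to current symbols, 78 directly and Notum through a synonym.

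The members, lists and tests were chosen with earlier results of these data known. Values were to be given for members above background in a group, in full for up to 8 called members per direction and contrast, and always for Ctnnb1, Axin1, Axin2, Apc, Gsk3b, Lef1, Tcf7 and Tcf7l2. From each list of other pathway genes, up to 3 called genes per direction and contrast could be named. Marker lists covered the myeloid line, macrophages, eosinophils, mast cells and basophils, T cells and stroma; 1 further list is not reported here. The PU box search was added after the data were examined.

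The letters A, B and C recur in all groups. Deviations from the group means of same-lettered arrays correlated at -0.174 to 0.195 (median 0.0416, 18 pairs), and those of different letters at -0.201 to 0.223. Between both 24 h groups all 3 same-lettered pairs exceeded 0.1, so letters may pair that contrast. A fit of those groups with the letter as a block was added for it as an alternative. Unless stated otherwise, counts and p-values given for that contrast come from the fit to all arrays without a block.

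Alternatives were normexp background correction with quantile normalization or 75th percentile scaling of the non-normalized table, other filters, a replicate block, array weights, another variance prior, fits to the groups of 1 contrast, and leaving out every array singly. The value table of the series equals the normalized table and was not run separately.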

Additional observations from a re-analysis of the deposited data

Results flagged for a closer look

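Limma's test across all 12 arrays called a difference between the 24 h changes of β-catenin cells and control cells for 5 genes of the set. The change with β-catenin-S33Y less that with the empty vector was 1.04 for Notum, 0.90 for Lrp5, 0.84 for Porcn, 0.74 for Tle6 and -0.58 for Ctnnbip1 on the log2 scale. Notum lay at or below the bound on 2 of 3 arrays of control cells at 24 h, so its difference may be understated. Porcn was at the bound in both β-catenin groups, where a fall could not have been measured, so its difference may be overstated. The call for Porcn therefore cannot show that the responses differed.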

How the results depend on the processing

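The 59 calls of a gene in a contrast were refitted under each alternative. Of these, 45 stayed called under every alternative that could test them, 14 were lost under at least 1, and 0 changed direction. Leaving out single arrays lost 10 calls at least once: Sfrp2, Znrf3, Dvl2 and Csnk1e in the control response, Ctnnd1 in the β-catenin response, Ctnnbip1 at 0 h, Fzd2, Fzd5 and Sfrp2 at 24 h, and Tle6 in the interaction. The other 4 were Tle2 in the control response when only those groups were fitted (adjusted p = 0.0556), Fzd2 at 0 h after normexp and quantile normalization, and Ctnnbl1 at 24 h and Ctnnbip1 in the interaction as given above. Array weights raised the count for the β-catenin response to 19 genes (8 higher, 11 lower) and that for the interaction to 12 (6 and 6). Normexp and quantile normalization gave 9 for the interaction (4 and 5). Scaling to the 75th percentile moved the median of all genes in the control response to -0.12 and split that contrast's calls into 6 higher and 14 lower, and those of the interaction into 4 and 2. Wif1 at 24 h was below background in both groups and fell from 0.98 to 0.57 and 0.60 under these renormalizations, still called. With the replicate block in the fit to all arrays the 5 counts were 19, 11, 9, 15 and 6, the calls of Sfrp2 in the control response and Fzd5 at 24 h were lost, and 1 lower call was gained in each of these contrasts and in the interaction. With only the 24 h groups and the block, 11 genes were called (8 and 3), without Fzd2, Fzd5, Sfrp2 and Ctnnbl1, as in the fit of these groups without the block. The block in either fit ended no other call. The cause of these shifts was not tested. Signal over background limits Notum, Rnf43, Wif1, Lgr5, Porcn, Fzd1 and Fzd2. The folds given for these genes against groups with an array below its bound are lower bounds. None is given for Lgr5, or for Rnf43 at 24 h.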
